A study of Mus musculus with 19 samples.

Results

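The windows described here were stretches of 10 kb of the mouse genome in which both H3K27me3 and H3K9me3 were high in embryonic stem cells (ESCs). They were chosen by measured values. A window was taken where, in the control cells at day 4, its mean log2 observed/expected value was at least 1 above the Input for each of the 2 marks and its mean Input value was at least -1.5. Of 247243 windows on chromosomes 1 to 19, 222268 had enough Input, and 221 of these passed on both marks. H3K27me3 alone passed in 14783 windows and H3K9me3 alone in 6126 windows. The 221 windows were thus 1.47% of the 15004 windows with H3K27me3 and 3.48% of the 6347 windows with H3K9me3, while H3K27me3 passed in 6.75% of all windows with enough Input.

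The study measured H3K27me3, H3K9me2 and H3K9me3 by ChIP-seq in a conditional knockout of Dnmt1 (Dnmt1 cKO), the enzyme that copies DNA methylation at cell division, and in control cells. Both groups were ESCs grown in serum with LIF. The labels give the genotypes as Wildtype and Dnmt1 KO and the background strain as E14, whereas the methods describe Dnmt1 loxP/loxP ESCs of C57BL/6 origin in which tamoxifen (4OHT) activated Cre. How the control cells were treated, whether each group was 1 line, and whether replicates came from separate cultures were not stated, so the spread between replicates may be technical. Each mark had 1 control and 1 Dnmt1 cKO library at day 4 and 2 of each at day 8, and a single Input library from control cells, with no day given, served all of them.

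H3K27me3 is laid down by Polycomb repressive complex 2, mostly over CpG islands that lack DNA methylation and over silent developmental genes. H3K9me3 is laid down in ESCs mainly by SETDB1, which KRAB zinc finger proteins and TRIM28 bring to transposons and to imprinting control regions. At an imprinting control region only the allele inherited from one parent carries DNA methylation. ZFP57 binds the methylated hexamer TGCCGC there and brings in the H3K9me3 machinery, whereas the unmethylated allele can carry other marks. ChIP-seq of a cell population cannot tell whether 2 marks in a window lay on the same nucleosome, on the 2 alleles or in different cells.

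Sequencing depth and the labels were checked first. The libraries held 5669098 to 26181489 reads in tiles, and the shallowest was H3K9me3 Dnmt1 cKO replicate 1 at day 8, so its values carry the largest counting error. In the tile of Dnmt1 that differed most (chr9:20744001-20746000) the day 8 libraries of all 3 marks together had 49 reads in control cells and 1 read in Dnmt1 cKO cells. In the day 8 controls the window at the start of 5 of 6 Polycomb target genes had H3K27me3 between 4.31 and 5.30 above Input (Gata4 had 0.95). The windows of the pluripotency genes Pou5f1, Nanog, Zfp42 and Tdgf1 were below Input (-1.92 to -1.07), while those of Esrrb and Klf4 were above it (1.57 and 1.66). Replicate 2 of Dnmt1 cKO H3K9me2 at day 8 had the flattest profile of that mark: 0.344% of windows were at least 1 above Input, against 0.984% to 1.88% in the other 3 day 8 libraries.

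Among the 221 windows, 3 covered imprinted genes, and these and 1 zinc finger gene were among the 5 with the highest smaller enrichment of the 2 marks. The window chr2:174120001-174130000 holds the start of Nespas, an antisense RNA of the Gnas locus, and coding exons of Gnas, which encodes a G protein subunit. It had 2.21 for H3K27me3 and 2.59 for H3K9me3 above Input at day 4. The window chr6:30680001-30690000 lies over exons of Mest, a paternally expressed gene of the hydrolase family, and had 1.76 and 1.81. The window chr11:11920001-11930000 lies over an exon of Grb10, an adaptor that restrains growth factor signalling, and had 2.38 and 1.66. The window chr7:134750001-134760000 holds the start and coding exons of the zinc finger gene Zfp629 and had 1.67 and 2.51. The fifth, chr17:56630001-56640000, lies 10671 bases from Znrf4 and had 2.43 and 1.85. The window chr9:89770001-89780000 had 2.10 and 1.52. It lies in intergenic sequence 24613 bases from Rasgrf1, an imprinted gene with a known upstream methylated region.

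**Figure D1:**
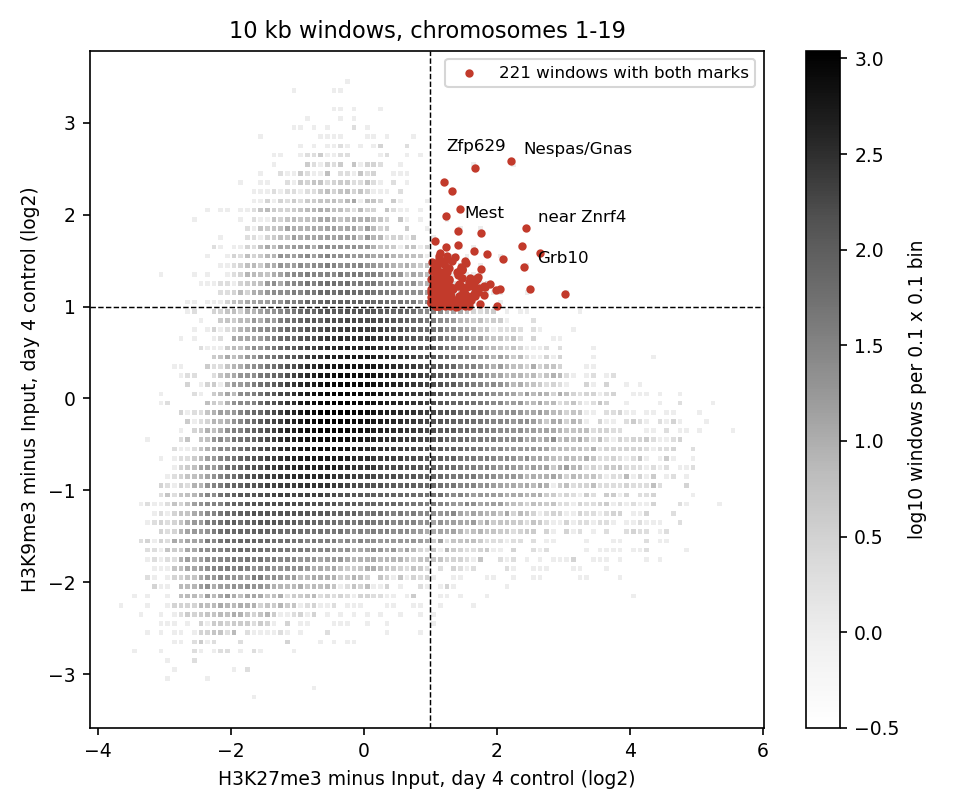
Each 10 kb window of chromosomes 1 to 19 with enough Input, placed by H3K27me3 minus Input (x axis, log2) and H3K9me3 minus Input (y axis, log2) in the day 4 control libraries; grey squares show how many windows fall in each bin and red points the 221 windows above 1 on both axes (dashed lines). Most red points lie close to the dashed lines, and the windows at Nespas/Gnas and Zfp629 stand highest.

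The sequences of these windows are shown because their H3K9me3 at day 8, given further on, set them apart from most of the 221. All are from the plus strand of NCBIM37. The first 4 are the 200 bases with the most matches to TGCCGC, on either strand, in the 4 windows with at least 7 matches, a choice made after the values were seen. Stretches that touch an annotated untranslated region were left out. Capitals mark the matches. The stretch at Nespas/Gnas (chr2:174125007-174125206) lies in an exon of Gnas, that of Zfp629 (chr7:134755456-134755655) in an exon of that gene, that of Mest (chr6:30687789-30687988) in an intron, and that near Rasgrf1 (chr9:89774532-89774731) between genes.
Nespas/Gnas: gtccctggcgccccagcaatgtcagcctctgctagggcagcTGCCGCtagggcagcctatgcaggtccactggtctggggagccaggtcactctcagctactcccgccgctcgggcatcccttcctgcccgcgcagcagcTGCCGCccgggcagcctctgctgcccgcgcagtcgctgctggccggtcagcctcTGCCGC
Mest: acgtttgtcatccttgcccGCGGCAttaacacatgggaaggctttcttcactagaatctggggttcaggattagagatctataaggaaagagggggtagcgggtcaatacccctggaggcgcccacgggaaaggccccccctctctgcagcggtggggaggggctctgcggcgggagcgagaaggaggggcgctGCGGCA
Zfp629: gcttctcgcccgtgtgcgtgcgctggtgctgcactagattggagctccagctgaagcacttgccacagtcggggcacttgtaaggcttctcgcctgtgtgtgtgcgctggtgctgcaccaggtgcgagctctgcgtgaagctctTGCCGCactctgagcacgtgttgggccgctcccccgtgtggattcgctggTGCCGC
near Rasgrf1: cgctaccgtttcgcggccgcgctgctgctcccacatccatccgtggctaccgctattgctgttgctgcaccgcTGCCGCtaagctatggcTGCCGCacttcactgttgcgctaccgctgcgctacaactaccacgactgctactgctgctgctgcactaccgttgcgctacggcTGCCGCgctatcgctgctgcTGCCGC

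For contrast, the most CpG-dense 200 bases outside annotated untranslated regions are printed for 2 further windows. Such a stretch at 4933422H20Rik (chr11:115309179-115309378, an exon) held 17 CpG and 0 matches and is not printed. H3K9me3 in that window was also lower at day 8. At Grb10 (chr11:11926329-11926528, an intron) they held 41 CpG and repeated a short unit, with 0 matches to the hexamer. Near Znrf4 (chr17:56636223-56636422, intergenic) they held 8 CpG and 0 matches.
Grb10: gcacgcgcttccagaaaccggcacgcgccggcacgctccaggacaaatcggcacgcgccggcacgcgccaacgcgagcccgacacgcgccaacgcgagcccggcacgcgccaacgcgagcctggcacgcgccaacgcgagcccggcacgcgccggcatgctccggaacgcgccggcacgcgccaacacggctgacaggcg
near Znrf4: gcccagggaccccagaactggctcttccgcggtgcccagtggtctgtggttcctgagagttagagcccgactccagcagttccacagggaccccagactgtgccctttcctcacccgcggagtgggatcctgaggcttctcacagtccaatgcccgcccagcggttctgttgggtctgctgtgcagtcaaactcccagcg

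The whole windows held 14 matches at Nespas/Gnas, 14 at Mest, 9 near Rasgrf1, 7 at Zfp629, 4 at Grb10 and 0 near Znrf4. Those at 4933422H20Rik and Fkbp6/Trim50, where H3K9me3 was also lower at day 8, held fewer than 7. Among all windows with enough Input, 41.3% held at least 1 match and 0.147% held 7 or more. Of the 221 windows 69.7% held at least 1, a share close to the 69.4% of windows with H3K27me3 alone and above the 55.6% of those with H3K9me3 alone. A match is a stretch of letters and not a measured binding site.

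The remaining members of the 10 with the highest smaller enrichment did not lie over imprinted genes. They were chr6:100410001-100420000, 103075 bases from Shq1 (1.66 for H3K27me3 and 1.61 for H3K9me3), chr17:8100001-8110000, in an intron of D030054H15Rik (2.65 and 1.59), chr8:109020001-109030000, at the start of 6030452D12Rik (1.85 and 1.57), and chr4:141820001-141830000, 24685 bases from Kazn (1.52 and 1.501). At the other end of the range most members were close to the threshold. The 2 members nearest to it were chr5:30780001-30790000, over exons of 1700001C02Rik and Cib4, with 1.38 and 1.0004, and chr8:74270001-74280000, 20386 bases from Fcho1, with 1.39 and 1.001. The 2 windows just outside were chr1:174200001-174210000, with 1.09 and 0.9996, and chr8:27020001-27030000, with 0.9987 and 1.08.

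The gene lists held few of the windows. Members were 0.0994% of the windows with enough Input, and the share of all genes that overlapped a member was not computed. Of 51 imprinted genes on chromosomes 1 to 19, 4 overlapped a member, in the body or the 1 kb upstream (Nespas, Gnas, Mest and Grb10, in 3 windows). Of 392 zinc finger genes 1 did (Zfp629). None of the listed 25 germline genes, 202 developmental transcription factor genes, 24 protocadherin genes, 1431 olfactory and vomeronasal receptor genes, 78 ribosomal protein genes, 41 genes of the Polycomb and H3K9 methylation machinery, 6 pluripotency genes or the 6 Polycomb target genes used for the check overlapped one. The lists do not hold every gene of a kind: Fkbp6, used in the male germline, starts in a member and was not listed. Within 50 kb of an imprinted gene lay 4 further members, found after the values were seen. These were the window near Rasgrf1, chr7:149770001-149780000 at 5953 bases from H19, chr12:110730001-110740000 at 28455 bases from Dlk1, and chr15:96920001-96930000 at 33614 bases from Slc38a4.

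By place the 221 windows were close to all windows with enough Input. Of them 123 (55.7%) were intergenic, 53 (24.0%) overlapped an exon, 28 (12.7%) lay within introns and 17 (7.69%) held a gene start or the 1 kb upstream of one, against 50.3%, 22.5%, 17.1% and 10.1% of all windows. A gene start was held by 35.7% of the windows with H3K27me3 alone, 4.77% of those with H3K9me3 alone and 8.34% of those with neither. In base composition the 221 were nearest to the windows with H3K27me3 alone: their median GC content was 48.6%, against 48.0% with H3K27me3 alone, 42.1% with H3K9me3 alone and 41.0% with neither, and their median CpG number was 115, against 133, 86 and 69. Chromosome 17 held the most members (22, or 2.74 per 1000 windows) and chromosomes 3 and 19 the fewest (3 each).

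The members were mostly single windows. There were 209 windows with no adjacent member and 6 runs of 2. The 5 runs with the highest summed enrichment lay over Tmem132e (chr11:82240001-82260000), a transmembrane protein gene, over Tpsg1 and Cacna1h (chr17:25510001-25530000), the latter encoding a T-type calcium channel, at and beside 4933422H20Rik (chr11:115300001-115320000), 1704 bases from Lrfn2 (chr17:49050001-49070000) and 38049 bases from Gm16767 (chr13:52110001-52130000).

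Input was low in the members, and this bears on every value taken minus Input. Their median Input value was -0.92 (quartiles -1.09 and -0.76), against -0.30 over all windows with enough Input, -0.48 with H3K27me3 alone and -0.72 with H3K9me3 alone. H3K9me2, a mark the choice did not use, was also above Input in them: its median was 0.98 in the day 4 control and 0.77 and 1.02 in the day 8 controls. Relative to each library's own median over windows, which uses no Input, the members had 0.10 and 0.36 for H3K9me2 in the day 8 controls, 0.87 and 0.82 for H3K27me3, and 0.55 and 0.47 for H3K9me3. The 2 marks of the choice were thus above their own library medians also without the Input, in 216 and 218 of 221 windows for H3K27me3 and in 207 and 202 for H3K9me3. How much of the enrichment over Input came from the low Input was not tested.

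In the day 8 controls, which the choice did not use, fewer of the windows passed on both marks. H3K27me3 was at least 1 above Input in 132 and 151 of the 221 windows in control replicates 1 and 2, and H3K9me3 in 102 and 78. Both marks passed in 58 windows (26.2%) in replicate 1 and in 52 (23.5%) in replicate 2, and 28 windows (12.7%) did so in both replicates. All 10 windows with the highest smaller enrichment were among the 28. In the Dnmt1 cKO libraries at day 8 both marks passed in 109 windows (49.3%) in replicate 1 and 118 (53.4%) in replicate 2. Single-mark shares over all windows with enough Input were also higher in Dnmt1 cKO at day 8 within each same-numbered pair, though for H3K27me3 the groups overlapped. H3K27me3 passed in 6.46% and 5.96% in control replicates 1 and 2 and in 7.94% and 6.36% in Dnmt1 cKO. H3K9me3 passed in 2.98% and 2.81% in control and in 4.51% and 3.12% in Dnmt1 cKO, where the 4.51% came from the shallowest library. Both marks passed in 107 and 84 of all these windows in the day 8 controls, and this was not counted for Dnmt1 cKO.

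**Figure D2:**
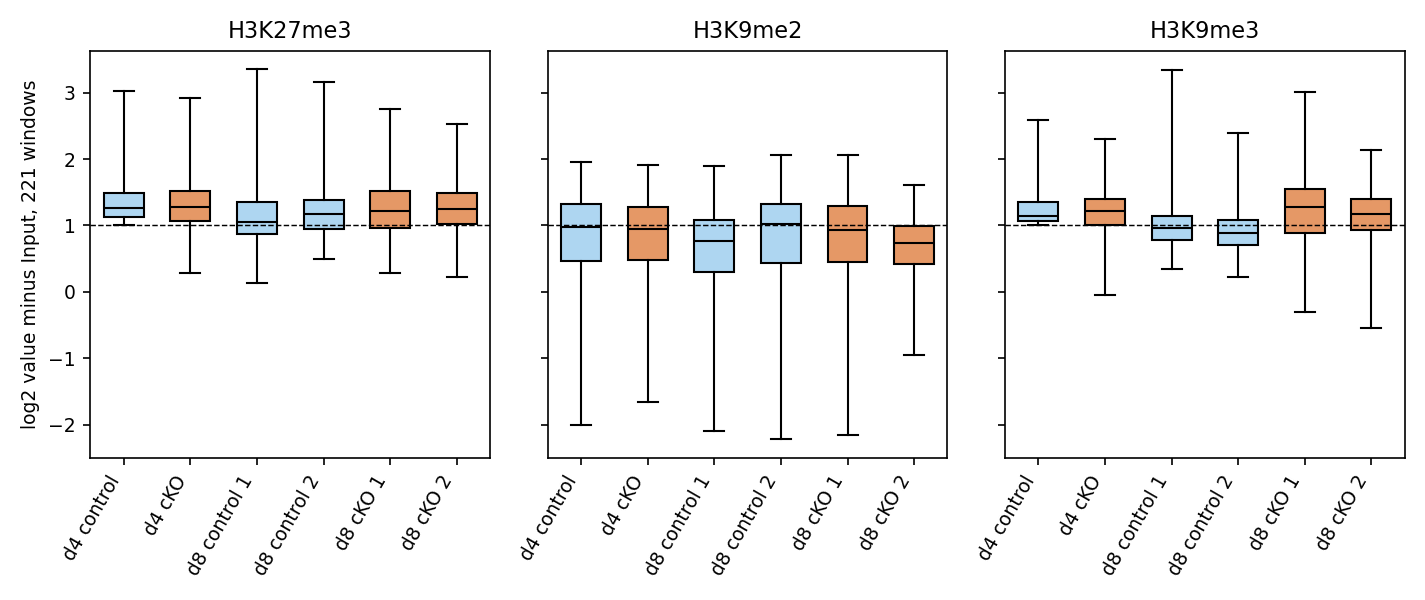
Log2 value minus Input (y axis) of the 221 windows in each of the 18 ChIP libraries (x axis, control blue, Dnmt1 cKO orange; d4 and d8 are days 4 and 8). Boxes show the median and quartiles and whiskers the lowest and highest window; the dashed line marks the threshold of 1, which the choice imposed on the day 4 control libraries of H3K27me3 and H3K9me3. The day 8 medians of H3K9me3 were 0.97 and 0.89 in control cells and 1.27 and 1.17 in Dnmt1 cKO cells.

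The place of each mark within the 10 kb was compared by tiles. Each window has 5 tiles of 2 kb, and in the summed day 8 control reads the tile with the most H3K27me3 was also the tile with the most H3K9me3 in 31 of the 221 windows (14.0%). They were at least 6 kb apart in 66 (29.9%). Over all windows the shares were 21.3% and 27.1%, with H3K27me3 alone 14.3% and 33.5%, and with H3K9me3 alone 17.2% and 30.04%, so the members were close to the windows with 1 of the marks. In the Mest window H3K27me3 peaked in the third tile (146 and 116 reads in control replicates 1 and 2) and H3K9me3 in the fifth (159 and 91). In the Zfp629 window H3K9me3 peaked in the third tile (306 and 136 reads), where H3K27me3 had 20 and 45, and H3K27me3 peaked in the fifth (62 and 67), where H3K9me3 had 13 and 7. In the Nespas/Gnas window both peaked in the third tile, with 256 and 229 reads of H3K27me3 and 216 and 113 of H3K9me3.

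The main comparison asks what became of these windows once Dnmt1 was deleted. At day 8 H3K9me3 was lower in both Dnmt1 cKO libraries than in both control libraries at Nespas/Gnas, Grb10, Mest, Zfp629 and near Rasgrf1, with differences from -2.73 to -1.03 on the log2 scale, while over all 221 windows its median was higher by 0.29 ± 0.02 (SD, n = 2 pairs of libraries with the same replicate number). H3K27me3 at the same loci differed less, between -0.56 and 0.65. H3K9me3 was also lower without overlap, and by more than at Mest, at Fkbp6/Trim50 and 4933422H20Rik, whose values are given further on. The pairs share only a number, and the SD of the H3K9me3 median depended on the scale. It was 0.10 with each library centred on its own median and 0.12 with the median of its GC bin subtracted. By limma on all windows, with Benjamini-Hochberg adjustment over 254392 windows for H3K27me3, 254389 for H3K9me2 and 254453 for H3K9me3, no window of the genome was called at an adjusted p-value under 0.05 (0% for each mark). Unadjusted p-values below 0.05 were found in 20 members (9.05%) for H3K27me3, 2 (0.905%) for H3K9me2 and 47 (21.3%) for H3K9me3, against 11.3%, 7.03% and 11.3% of all windows tested. With a mean-variance trend in limma's test 4 members were called for H3K27me3, 0 for H3K9me2 and 10 for H3K9me3, and of all windows tested 0.767%, 0% and 0.289%. A permutation test of 2 against 2 libraries cannot go below an exact two-sided p of 0.333.

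Day 8 values of single windows are given as mean log2 observed/expected without subtraction of Input, which cancels in a difference. At Nespas/Gnas the H3K9me3 value was 2.64 and 1.68 in the control replicates and 0.05 and -1.19 in the Dnmt1 cKO replicates. Both Dnmt1 cKO libraries lay far below both controls. The difference was -2.73 ± 0.42 (limma SE; adjusted p = 0.41, and 9.55e-07 with the trend), and the reads pooled over both libraries of a group gave a depth-scaled ratio of 0.130 (95% exact binomial interval 0.103 to 0.161, counting error only, as for all ratios given here). The window held 688 and 351 H3K9me3 reads in control and 36 and 53 in Dnmt1 cKO, and its tile with the printed sequence 216 and 113 against 5 and 14. H3K27me3 was 1.71 and 1.25 in control and 1.16 and 0.67 in Dnmt1 cKO, a difference of -0.56 ± 0.26 (SE; adjusted p = 0.451), and a ratio of 0.658 (0.596 to 0.726). The Dnmt1 cKO libraries thus held 345 and 343 reads of H3K27me3 in this window, against 524 and 447 in control.

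At Grb10 H3K9me3 was 2.32 and 1.68 in control and -0.14 and -0.19 in Dnmt1 cKO. The groups were again well apart, with a difference of -2.16 ± 0.28 (SE; limma adjusted p = 0.41, and 5.28e-07 with the trend) and a ratio of 0.200 (0.163 to 0.243). H3K27me3 was the highest of the 5 loci there, 2.90 and 2.56 in control and 2.43 and 2.41 in Dnmt1 cKO, and its ratio was 0.802 (0.743 to 0.866). In the tile that holds the printed Grb10 sequence H3K9me3 had 171 and 103 reads in control and 6 and 28 in Dnmt1 cKO, and H3K27me3 had 194 and 163 against 130 and 161.

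Near Rasgrf1 H3K9me3 was 1.85 and 1.26 in control and 0.64 and -0.36 in Dnmt1 cKO (ratio 0.312, 0.255 to 0.380). H3K27me3 there was 2.26 and 2.04 in control and 2.18 and 2.05 in Dnmt1 cKO, so these groups overlapped, with a ratio of 0.926 (0.847 to 1.01). At Mest H3K9me3 was 1.66 and 1.22 in control and 1.03 and -0.21 in Dnmt1 cKO (ratio 0.352, 0.293 to 0.420). Its 2 pairs differed most among these loci, -0.63 in replicate 1 and -1.43 in replicate 2, and it was not called with the trend either (limma adjusted p = 0.058). H3K27me3 at Mest was 1.65 and 1.41 in control and 1.29 and 1.22 in Dnmt1 cKO (ratio 0.901, 0.811 to 1.00). H3K9me2 at Mest was -1.66 and -1.83 in control and -1.39 and -0.36 in Dnmt1 cKO, the largest higher value of that mark among the members whose libraries did not overlap, and it came mostly from replicate 2, the library with the flat profile.

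At Zfp629 the 2 marks differed in opposite directions. H3K9me3 was 2.28 and 1.26 in control and 0.79 and -0.46 in Dnmt1 cKO, a difference of -1.60 ± 0.43 (SE; limma adjusted p = 0.41, and 0.00575 with the trend). H3K27me3 was 0.72 and 1.14 in control and 1.38 and 1.79 in Dnmt1 cKO, 0.65 ± 0.26 higher (SE; adjusted p = 0.365). In the tile of the printed exon sequence H3K9me3 had 306 and 136 reads in control and 14 and 27 in Dnmt1 cKO, whereas H3K27me3 had 20 and 45 against 62 and 118. A like pattern was seen at chr5:135820001-135830000, which holds the starts of Fkbp6, a gene used in the male germline, and Trim50, a ubiquitin ligase gene. H3K9me3 was 0.63 and 0.50 in control and -0.57 and -0.82 in Dnmt1 cKO, and H3K27me3 was 0.76 and 0.73 in control and 1.69 and 1.32 in Dnmt1 cKO. The ratios were 0.310 (0.242 to 0.393) for H3K9me3 and 1.67 (1.48 to 1.90) for H3K27me3.

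**Figure D3:**
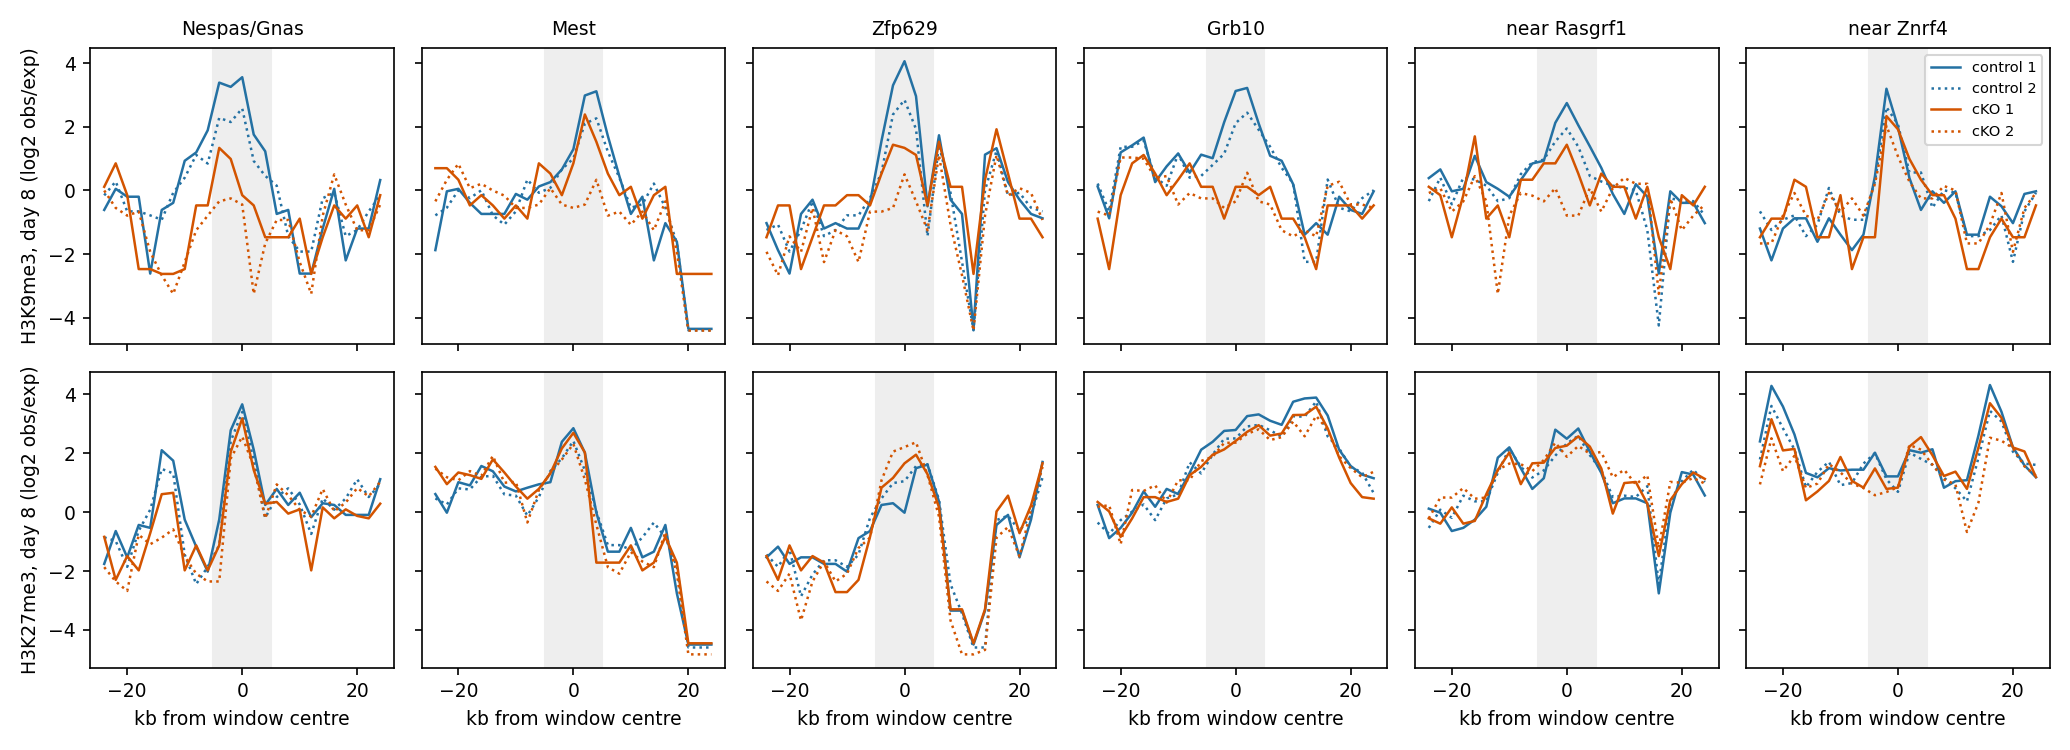
H3K9me3 (top) and H3K27me3 (bottom) at day 8 as log2 observed/expected per 2 kb tile (y axes) against distance from the window centre in kb (x axis) for 6 windows; control blue, Dnmt1 cKO orange, replicate 1 solid and replicate 2 dotted, the 10 kb window shaded. The H3K9me3 peak of the controls is lower in both Dnmt1 cKO libraries at Nespas/Gnas, Mest, Zfp629, Grb10 and near Rasgrf1, and near Znrf4 by less over the window (pair differences -0.26 and -0.55).

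The other windows high on both marks varied. Near Znrf4 H3K9me3 was 1.08 and 1.22 in control and 0.82 and 0.67 in Dnmt1 cKO, with a ratio of 0.652 (0.560 to 0.758), and H3K27me3 was 1.71 and 1.52 against 1.57 and 1.30, with overlapping groups. Near Shq1 H3K9me3 was higher, 0.09 and 0.23 in control and 1.00 and 0.54 in Dnmt1 cKO, and H3K27me3 hardly differed (0.34 and 0.33 against 0.36 and 0.33). The 10 windows at least 1.5 above Input on both marks had a median H3K9me3 difference of -0.54 in replicate 1 and -0.99 in replicate 2, opposite in sign to the median of all 221.

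Over the whole set H3K9me3 was lower without overlap in 29 of the 221 windows (13.1%) and higher in 122 (55.2%). Over all windows with enough Input the shares were 25.9% lower and 20.6% higher. With H3K9me3 alone they were 31.0% and 16.7%, and with H3K27me3 alone 10.6% and 29.6%. The median difference over members was 0.27 and 0.30 in the 2 pairs, against -0.12 and 0.02 over all windows, -0.02 and 0.23 with H3K27me3 alone, and -0.01 and -0.12 with H3K9me3 alone. Subtracting each library's median of its GC bin left 0.25 in replicate 1 and 0.08 in replicate 2. Centring each library on its own median gave 0.47 and 0.33, as it moved the median of all windows from -0.12 to 0.07 in replicate 1. Summed reads per window, in place of mean tile values, gave 0.34 and 0.24 over members, against -0.014 and 0.022 over all windows. Counting error bears on the differences of single windows: with a median of 38 reads per member in the shallow library and 101 in its control, counting alone gives a single difference an SD of 0.27 in replicate 1, and 0.20 in replicate 2.

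By the number of hexamer matches, the 4 members with 7 or more had H3K9me3 medians of -1.35 and -1.67 in the 2 pairs, with all 4 lower without overlap. The 18 with 4 to 6 matches had 0.27 and 0.37, the 132 with 1 to 3 had 0.30 and 0.27, and the 67 with no match had 0.23 and 0.35. Among those 18, 132 and 67 members, 6, 10 and 9 were lower without overlap and 10, 71 and 41 higher. Over all windows with enough Input 25.9% were lower and 20.6% higher. These bins were set after the values were seen and were not tested. They also differed in CpG number, with medians of 269, 146.5, 121.5 and 105 from the most matches to none. The 4 with 7 or more were also all among the 10 members with the highest smaller enrichment. Matches, CpG number and enrichment thus cannot be told apart here. Of all windows with enough Input 326 held 7 or more matches, and the H3K9me3 difference over them as a set was not computed.

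The 4 members with the largest higher H3K9me3 were in an intron of Rbfox3 (chr11:118510001-118520000), a neuronal splicing factor gene, over Cyp21a1 (chr17:34930001-34940000), which encodes the steroid 21-hydroxylase, 22761 bases from Igsf21 (chr4:139550001-139560000), and in an intron of Gm20388 (chr8:123850001-123860000). At Rbfox3 H3K9me3 was -0.67 and -0.56 in control and 0.65 and 0.47 in Dnmt1 cKO, from 62 and 65 reads against 45 and 133, with a ratio of 2.13 (1.68 to 2.69). At Cyp21a1, a gene with a near-identical copy, it was -0.43 and -0.46 in control and 0.94 and 0.49 in Dnmt1 cKO. Near Igsf21 it was 0.33 and 0.00 against 1.43 and 1.12, and at Gm20388 -0.25 and -0.65 against 0.48 and 0.58. Near Igsf21 H3K27me3 went the other way, 2.07 and 1.89 in control and 1.74 and 0.84 in Dnmt1 cKO. Each of the 4 windows was called with the trend (limma adjusted p = 0.0153, 0.0157, 0.0133 and 0.0451), none without it. In none of them did both marks pass over Input in both day 8 control replicates.

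**Figure D4:**
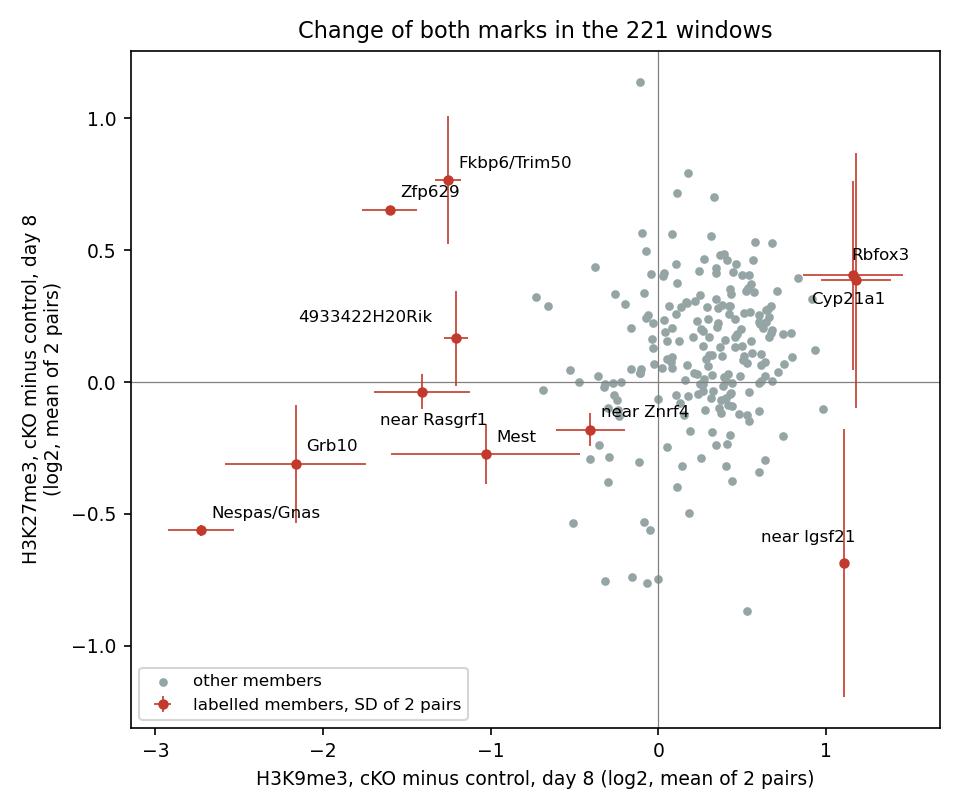
Difference between Dnmt1 cKO and control at day 8 (log2, mean of 2 pairs) of H3K9me3 (x axis) and H3K27me3 (y axis) in the 221 windows; labelled red points carry the SD of the 2 pairs, grey points are the other members. Most points lie right of 0, and Nespas/Gnas, Grb10, Mest, near Rasgrf1, Zfp629, 4933422H20Rik and Fkbp6/Trim50 lie at or left of -1 on the x axis.

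The H3K9me3 medians were lowest at gene starts, a difference that was not tested. The 17 windows with a start had medians of -0.08 and 0.13 in the 2 pairs, with 4 lower and 6 higher without overlap. The 53 over exons had 0.30 and 0.37 (6 lower, 32 higher), the 28 in introns 0.34 and 0.47 (2 lower, 21 higher) and the 123 intergenic ones 0.23 and 0.24 (17 lower, 63 higher). Over all windows with enough Input 25.9% were lower without overlap and 20.6% higher. Of the 10 members called with the trend 6 were lower, at Grb10, Nespas/Gnas, 4933422H20Rik, Fkbp6/Trim50 and Zfp629 and near Rasgrf1, and 4 were higher, those named above. At 4933422H20Rik (chr11:115300001-115310000), an uncharacterized gene, H3K9me3 was 1.58 and 1.30 in control and 0.32 and 0.14 in Dnmt1 cKO, with a ratio of 0.370 (0.308 to 0.442). In the adjacent member, 417 bases from that gene, it was 0.10 and 0.19 against -0.27 and 0.05. Of the other members within 50 kb of an imprinted gene, that near H19 had 0.63 and 0.29 in control and -0.13 and -0.26 in Dnmt1 cKO (ratio 0.629, 0.498 to 0.789), while the groups overlapped near Dlk1 (0.30 and 0.46 against 0.80 and -0.11) and near Slc38a4 (-0.10 and 0.14 against -0.28 and 0.26).

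H3K27me3 differed less than H3K9me3. Over the 221 windows its median difference was 0.09 ± 0.03 (SD, n = 2 pairs), from 0.11 and 0.07, against 0.05 and 0.06 over all windows and -0.02 and -0.13 with H3K27me3 alone. It was higher without overlap in 82 members (37.1%) and lower in 32 (14.5%), against 25.4% and 17.7% of all windows with enough Input, and 21.9% and 32.8% with H3K27me3 alone. Centring each library on its median left 0.06 and -0.05, so the sign of the median depended on the scaling. The largest higher value was at chr10:57690001-57700000, which holds the starts of 4933403O03Rik, Gm10807 and Gm4981. There H3K27me3 was 0.51 and 0.93 in control and 1.91 and 1.80 in Dnmt1 cKO, with a ratio of 2.31 (2.08 to 2.58; limma adjusted p = 0.152, and 0.00157 with the trend), while H3K9me3 was 1.05 and 0.94 against 0.97 and 0.80. It was followed by windows 331272 bases from Gm2301 (0.97 and 0.62 higher in the 2 pairs), at Fkbp6/Trim50 (0.94 and 0.59) and in an intron of Erc2, a presynaptic scaffold gene (0.77 and 0.67).

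The largest lower values of H3K27me3 were at chr2:158890001-158900000, 206051 bases from Dhx35, and at chr15:34160001-34170000, which holds the start of Laptm4b, a lysosomal membrane protein gene. Near Dhx35, the member with the highest H3K27me3 at day 4 (3.02 above Input), it was 2.46 and 2.27 in control and 1.58 and 1.42 in Dnmt1 cKO, a ratio of 0.557 (0.505 to 0.614). At Laptm4b it was 1.69 and 1.38 in control and 0.94 and 0.59 in Dnmt1 cKO, a ratio of 0.533 (0.473 to 0.601). Windows 243578 bases from Chrna7 (-0.80 and -0.72) and 86012 bases from Speer2 (-0.78 and -0.71) followed. Set side by side, without a test, of the 122 members with higher H3K9me3, H3K27me3 was higher without overlap in 52, lower in 10 and overlapping in 60, and of the 29 with lower H3K9me3 it was higher in 7, lower in 9 and overlapping in 13. Among all 221 members H3K27me3 was higher in 82 (37.1%) and lower in 32 (14.5%). The same count was not made over all windows or over those with 1 mark.

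**Figure D5:**
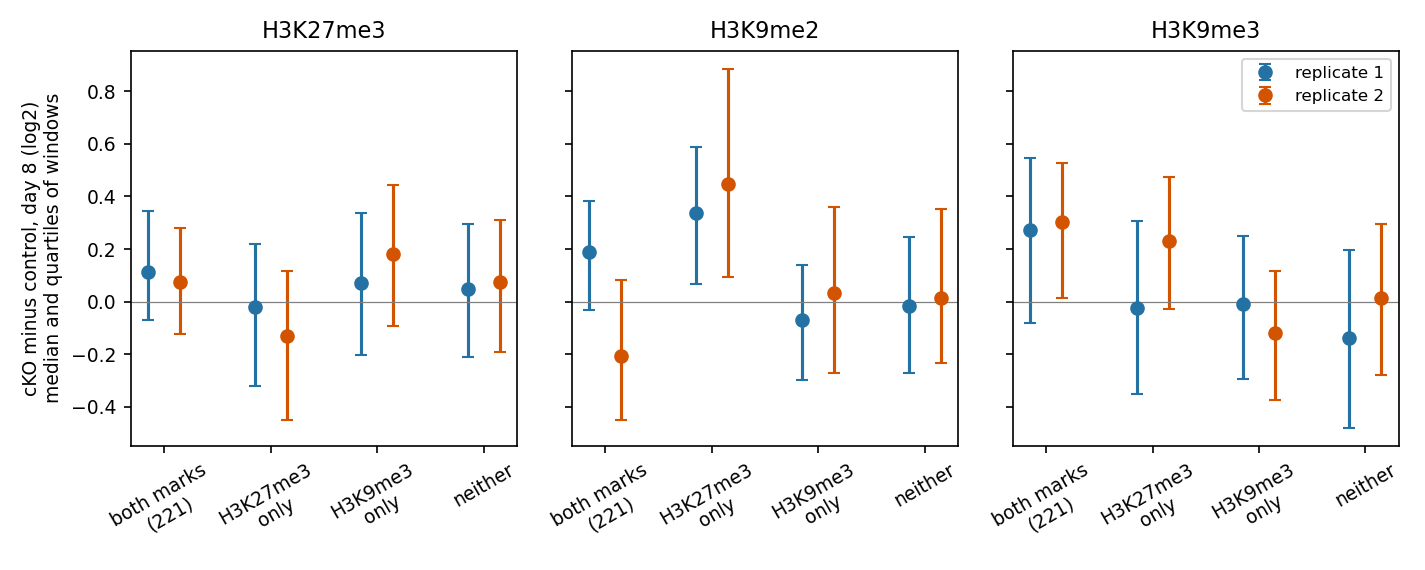
Median difference between Dnmt1 cKO and control at day 8 (y axis, log2) over windows with both marks, 1 of them or neither (x axis), for replicate pairs 1 (blue) and 2 (orange); bars span the quartiles of windows. For H3K9me3 the windows with both marks have medians of 0.27 and 0.30, and for H3K9me2 their 2 pairs have opposite signs, 0.19 and -0.21.

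For H3K9me2 the 2 pairs did not go the same way. The median over members was 0.19 in replicate 1 and -0.21 in replicate 2, against 0.00 and 0.03 over all windows and 0.34 and 0.45 with H3K27me3 alone. The Dnmt1 cKO library of replicate 2 is the one with the flat profile, and its part in this was not tested. H3K9me2 was lower without overlap in 39 members (17.6%) and higher in 30 (13.6%), against 20.8% and 20.9% of all windows. After the GC correction both pairs were lower, by medians of -0.24 and -0.53. The members with the largest higher values after Mest were over exons of Shank3, a postsynaptic scaffold gene (1.01 and 0.47 in the 2 pairs), beside 4933422H20Rik (0.75 and 0.54) and 75879 bases from Tcfap2c (0.74 and 0.46). Those with the largest lower values were at the start of Fam71a (-1.09 and -0.05), in introns of Wwox (-0.03 and -1.07) and Erc2 (-0.28 and -0.81) and 77325 bases from Lclat1 (-0.45 and -0.62). In the first 2 of these nearly all of the difference came from 1 pair.

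At day 4 there was 1 library per group, and its control H3K27me3 and H3K9me3 values are those that chose the members, so a lower Dnmt1 cKO value is partly fixed by the choice and has no test. H3K9me3 in the Dnmt1 cKO library minus control was -0.48 at Nespas/Gnas, -0.58 at Mest, -0.38 at Zfp629, -0.37 at Grb10 and -0.20 near Rasgrf1. Over the 221 windows the median over Input was not lower: 1.15 in control and 1.22 in Dnmt1 cKO for H3K9me3, and 1.26 and 1.28 for H3K27me3. H3K9me2, which the choice did not use, had medians over Input of 0.98 in the control and 0.94 in the Dnmt1 cKO library at day 4.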

How the data were processed

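ChIP-seq of 3 histone marks and 1 Input library gave 19 libraries of mouse ESCs. Reads were trimmed with Trim Galore, aligned by the authors to NCBIM37 (Bowtie2 2.2.9 per the labels), and filtered at a mapping quality of 20. Removal of duplicates was not stated. The deposited table holds 1327469 tiles of 2 kb (the methods name 1 kb) with log2 observed/expected values per library, not corrected for Input. Low values were whole reads (100% of those under 50 reads, within 0.001), a tile without reads counting as 0.9 read, so reads were recovered from them. All 22 chromosome lengths matched NCBIM37, whose bases and GENCODE M1 genes (26225) gave positions.

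Tile values were averaged per 10 kb window, and the rule given in the results chose the members. The members and gene lists were chosen with earlier results of these data known. Day 8 groups were compared per mark with limma 3.58.1 (R 4.3.3; two-sided, without trend, no covariate, Benjamini-Hochberg over all windows with reads), tested on simulated data. Pairs of libraries with one replicate number gave SDs. Named windows were the 10 members with the highest smaller enrichment, the 5 top runs, per mark and direction the 4 members with the largest difference among those without overlap of the libraries (none being called), members at listed genes, and the 2 nearest the threshold on each side. Ratios used reads scaled by library totals. Python 3.11.15 and scipy 1.17.1 were used. Alternatives were trend, summed reads, filters, centring, GC correction, replicate block, other definitions and left-out libraries. The catalogue number given for the H3K27me3 antibody differed between libraries.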

Additional observations from a re-analysis of the deposited data

Results flagged for a closer look

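Named windows whose difference between Dnmt1 cKO and control had one sign in the single pair of libraries at day 4 and the opposite sign in both pairs at day 8 are given here, and the difference between the days was not tested. For H3K27me3 and H3K9me3 the day 4 control library also chose the windows. Near Znrf4 H3K27me3 was 0.05 at day 4 and -0.18 at day 8 (mean of 2 pairs), and H3K9me3 was 0.10 and -0.41. At Grb10 H3K27me3 was 0.07 at day 4 and -0.31 at day 8. Near Kazn H3K9me3 was -0.14 and 0.19. For H3K9me2 the window at Wwox had 0.02 at day 4 and -0.55 at day 8, and the window 417 bases from 4933422H20Rik had -0.16 and 0.64.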

How the results depend on the processing

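The number of windows with both marks was 221 and depended on the definition. It was 10 with a threshold of 1.5, 777 with 0.8, 128 with a minimum Input of -1, 107 and 84 with day 8 control replicate 1 or 2 in place of day 4 (58 and 52 of them members), and 342 with each library's own median in place of Input (46 of them members). Summed reads gave 227 windows (149 of them members), no minimum Input 285, and a grid shifted by 5 kb gave 190, of which 53 overlapped a member.

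No window was called in the main limma fits, which used no trend. For H3K27me3, the trend called 1952 windows (4 members), summed reads 10 (0 members), no filter 264 (0 members), the replicate block 2473 (1 member, at 4933403O03Rik) and the GC correction with replicate block 4204 (2 members). For H3K9me3 the trend called 735 (10 members), the replicate block 16 (2 members, Nespas/Gnas and Grb10) and the GC correction with replicate block 51 (4 members). With 2 pairs that share only a number, the block is no sign of pairing, and the correlation of same-numbered deviations over windows was 0.25, 0.16 and 0.10 for H3K27me3, H3K9me2 and H3K9me3. H3K9me2 had 0 calls in all of these. Without 1 replicate, the lone library of a group being assumed to vary like the others, the calls ranged from 347 to 6079 for H3K27me3 (0 to 2 members), from 0 to 22230 for H3K9me2 (0 to 2 members) and from 0 to 26709 for H3K9me3 (0 to 17 members). The highest H3K27me3 and H3K9me2 counts came without Dnmt1 cKO replicate 1 and the highest H3K9me3 count without Dnmt1 cKO replicate 2, which leaves the shallow library alone.

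The median difference of H3K9me3 over members (0.29) was 0.40 after centring, 0.17 after GC correction and -0.77 over the 10 windows with a threshold of 1.5, and ranged from 0.27 to 0.30 without 1 replicate. That of H3K27me3 (0.09) was 0.0074 after centring, 0.027 after GC correction and -0.21 with the threshold of 1.5, and 0.075 to 0.11 without 1 replicate. That of H3K9me2 (-0.0086) was -0.38 after GC correction and 0.32 with the threshold of 1.5, and -0.21 to 0.19 without 1 replicate.

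Members without overlap numbered 114 for H3K27me3 (32 lower, 82 higher), 69 for H3K9me2 and 151 for H3K9me3. Over all windows with enough Input, uncorrected, 17.7% were lower and 25.4% higher for H3K27me3. For H3K9me2 the shares were 20.8% and 20.9%, and for H3K9me3 25.9% and 20.6%. Centring left 43 higher for H3K27me3, with 36 lower. GC correction gave 121 for H3K9me2, 119 lower and 2 higher, and 33 lower and 95 higher for H3K9me3. On these 2 scales overlap was not counted over all windows, only the sign in both pairs. After centring, H3K27me3 was higher in both pairs in 35.3% of members and 27.6% of all windows. After GC correction, H3K9me2 was lower in both pairs in 66.5% and 31.7%, and H3K9me3 higher in 51.1% and 31.8%. With the threshold of 1.5, of 10 windows, there were 6 for H3K27me3 (5 lower, 1 higher), 1 for H3K9me2 (0 lower, 1 higher) and 8 for H3K9me3 (6 lower, 2 higher). With the minimum Input of -1, of 128 windows, there were 66 (19 lower, 47 higher), 38 (24 lower, 14 higher) and 92 (18 lower, 74 higher).

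Of 40 named differences under 7 alternatives each (280 values), 256 kept their sign and their side of the threshold, 15 kept their sign and became called, and 9 turned sign. Those were H3K27me3 near Shq1 (-0.081 centred, -0.0081 to 0.020 without 1 replicate), H3K9me3 at D030054H15Rik (0.030 centred, -0.46 to 0.29 without 1 replicate), and, without 1 replicate, H3K9me3 at 6030452D12Rik (-0.15 to 0.25), H3K27me3 near Rasgrf1 (-0.15 to 0.077) and H3K27me3 near Kazn (-0.44 to 0.069). The causes were not tested. Depth limits single windows most in the shallow H3K9me3 library.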
